A study of Homo sapiens with 24 samples.

Results

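The p53 target genes described here are 31 genes taken as textbook targets of the transcription factor p53, whichever way it acts on them, with the cell cycle inhibitor p21 (CDKN1A) left out of the set. They were chosen by symbol, and all 31 were found among the 23207 gene symbols measured. RNA was sequenced from LNCaP, a human prostate cancer line whose growth depends on androgens, in 24 libraries that form 8 groups of 3. Every cell population carried a lentivirus, given at 10 infectious particles a cell, and had been grown out in 1 μg/ml of the antibiotic puromycin before being kept as stable clones in 0.5 μg/ml. The virus carried either a hairpin against no target (NTC) or one against SIRT1, a deacetylase that uses NAD. The first set of 6 libraries holds NTC and shSIRT1 cells grown with fetal bovine serum (FBS), which contains androgens. The second set, of 18 libraries, compares NTC with SIRT1 knockdown cells that the labels call 10, grown 48 h with FBS and 24 h with charcoal-stripped serum (CSS), from which androgens are removed. For a further 24 h those cells were given vehicle, the androgen dihydrotestosterone (DHT) at 1 nM, or the same DHT with 10 µM enzalutamide, an antiandrogen drug. Whether 1 hairpin stands behind both knockdown names, and how many clones make up a group, is not given in the labels, so a clone's own traits and the loss of SIRT1 cannot be told apart.

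p53 is a transcription factor that accumulates after DNA damage and other stress, binds DNA as a tetramer, and switches on genes that halt division, repair DNA or start cell death. MDM2 and MDM4 bind p53 and hold it down, and MDM2 is itself a p53 target, which closes a feedback loop. SIRT1 is known to remove acetyl groups from p53, and LNCaP cells are known to carry p53 of normal sequence. Many of these genes also answer to other factors, so their RNA levels are not by themselves a measure of p53.

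A p53 site on DNA is made of paired half-sites of 10 bases, and the stretch before the start of a gene shows which members hold such letters close by. RefSeq windows of 300 bases (GRCh38.p14, 250 before the start and 50 after) were at hand for 27 of the 31 members. The half-site, whose motif reads the same on both strands, was found in 5 of those 27 windows (18.5%), against 6.63% of 35116 RefSeq promoters. The search was the same, but only the first listed window of each member was used. The 35116 were not reduced in this way, so the shares are not strictly alike. A pair of half-sites at most 13 bases apart was found in 0 of the 27 and in 0.0285% of all. Members' windows were also richer in G and C (median 68.0% against 58.7%), and the part of base composition in these shares was not tested. The 5 matches are shown within 60 bases each, with the half-site in capitals, because these are the members whose start region holds the letters that p53 is known to read.
AEN, chr15:88621281-88621340, plus strand: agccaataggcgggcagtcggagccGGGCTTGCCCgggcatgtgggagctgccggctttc
EI24, chr11:125569442-125569501, plus strand: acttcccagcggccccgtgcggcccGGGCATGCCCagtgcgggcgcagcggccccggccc
FDXR, chr17:74872971-74873030, minus strand: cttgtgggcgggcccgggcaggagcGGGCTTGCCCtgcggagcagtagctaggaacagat
PLK2, chr5:58460184-58460243, minus strand: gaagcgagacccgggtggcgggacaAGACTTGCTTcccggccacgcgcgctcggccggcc
RPS27L, chr15:63157502-63157561, minus strand: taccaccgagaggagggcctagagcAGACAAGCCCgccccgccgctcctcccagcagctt

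The half-sites begin 34 (AEN), 10 (EI24), 11 (FDXR), 132 (PLK2) and 59 (RPS27L) bases before the start. A match is a description of letters and not evidence of binding. The 250 bases before the start of ACER2 and of TP53I3 are given too, since these members had the largest differences with the SIRT1 knockdown and with DHT below. Neither holds the half-site.
ACER2, chr9:19408759-19409008, plus strand: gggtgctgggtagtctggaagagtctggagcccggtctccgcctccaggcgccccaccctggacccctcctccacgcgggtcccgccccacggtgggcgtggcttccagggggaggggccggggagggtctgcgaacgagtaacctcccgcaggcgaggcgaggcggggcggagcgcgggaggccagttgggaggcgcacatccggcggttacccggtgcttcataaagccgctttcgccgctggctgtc
TP53I3, chr2:24084835-24085084, minus strand: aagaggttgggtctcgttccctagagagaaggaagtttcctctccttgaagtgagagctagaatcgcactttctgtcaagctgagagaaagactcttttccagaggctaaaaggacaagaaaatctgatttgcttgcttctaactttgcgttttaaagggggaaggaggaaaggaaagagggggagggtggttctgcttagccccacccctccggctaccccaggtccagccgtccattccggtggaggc

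The libraries held 11894023 to 14196127 counts in the FBS set and 25236353 to 35108310 in the CSS set. SIRT1, the gene that the hairpins target, averaged 38.25 ± 1.61 CPM (counts scaled to a common library size) in NTC and 8.11 ± 0.788 in shSIRT1 cells (SD, n = 3), and 49.2 to 58.7 in NTC against 15.6 to 19.9 in knockdown 10. Luminal prostate markers were present (KRT8 at 310 to 741 CPM), while the defining basal markers KRT5, KRT15 and TP63, the fibroblast genes DCN and LUM and the leukocyte genes PTPRC and CD3E all stayed at or below 0.339 CPM. Other genes of these lists were present at low levels: VIM (7.62 to 53.6 CPM), AXL (up to 3.2) and KRT14 (up to 1.26) among basal markers, COL1A1 (10.5 to 29.98), COL3A1 (2.81 to 12.6) and COL1A2 (up to 1.7) among fibroblast genes, and CD68 (5.11 to 8.73), VWF (2.75 to 8.55), LYZ (1.11 to 7.21) and PECAM1 (up to 6.19) in the leukocyte and endothelial list. COL3A1 was higher (log2 fold change 0.53, 0.73 and 0.76, adjusted p = 0.0018, 6.05e-05 and 8.85e-05) and VWF lower (-0.85, -0.59 and -0.83, adjusted p = 0.000622, 0.00606 and 0.00105) in knockdown 10 in the 3 CSS conditions, and CD68 was higher under DHT (0.31, adjusted p = 0.0351). The part of these in the members' values was not tested. In the FBS set, libraries 1 and 2 of each group lay close together (mean chi-square over genes of 1.55 for NTC, 1.6 for shSIRT1, and 8.89 to 9.39 to library 3). They differed by more than counting noise, which does not show that they are separate cultures. All 3 were kept, and a fit with libraries 1 and 2 summed is given as an alternative. In the CSS set, library 2 of the DHT-treated knockdown stood farthest from another library of its group (38.6). As these are bulk samples, fewer cells making a transcript and less of it per cell cannot be told apart. A member was called where the Benjamini-Hochberg adjusted p of edgeR's quasi-likelihood test, taken over all genes of the fit, was under 0.05, and all adjusted p values below come from that test. The labels do not say that libraries of a group are separate cultures, so the p values measure the spread between these libraries, which may be technical.

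On the deposited TPM scale, which allows for gene length and so lets levels of different genes be compared, the members of the CSS set spanned a wide range. RPS27L, which encodes a ribosomal protein S27-like factor that acts on MDM2, was highest with a median of 333.5 TPM over 18 libraries (255 to 481.8). Reads of RPS27L can be shared with its near-identical relative RPS27, so its level is uncertain. It was followed by CCNG1 (cyclin G1, median 252.5 TPM), SESN1 (a sestrin that restrains growth signalling through mTORC1, 191.3) and TP53INP1 (a p53-induced nuclear protein tied to cell death and autophagy, 189), and the ranges of these last 3 overlapped. The range of RPS27L also overlapped those of CCNG1 (191.4 to 279.2) and TP53INP1 (121.8 to 261.3), but not that of SESN1 (133 to 237). At the low end stood TP53I3, SPATA18 and PLK3, and PLK3, a polo-like kinase of the stress response, was lowest at 2.275 TPM. In the FBS set CCNG1 led (322.5 TPM over 6 libraries) with RPS27L at 310.8, their ranges again overlapping, and PLK3 was lowest (4.465). The p53 brakes differed widely in level: MDM2 had a median of 44.84 TPM in CSS and 73.95 in FBS, and MDM4 of 7.57 and 20.9.

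**Figure D1:**
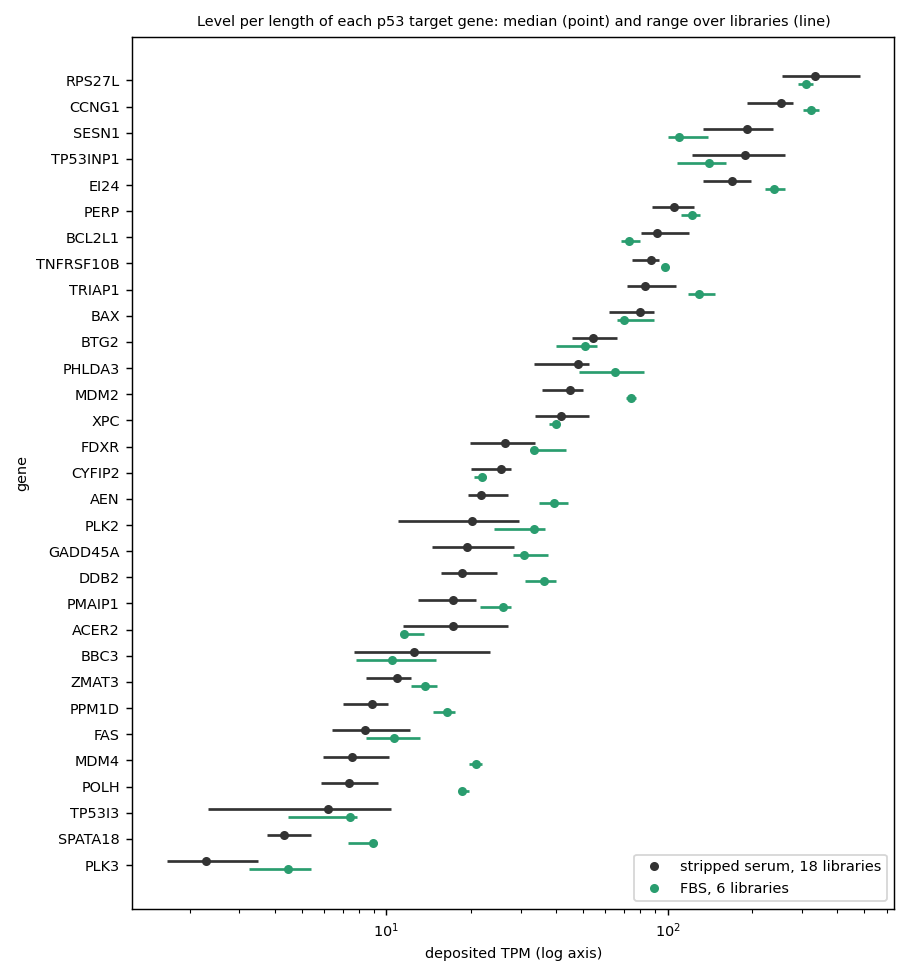
Deposited TPM of the 31 p53 target genes on a log axis, ordered by their median over the 18 CSS libraries; points are medians and lines run from the lowest to the highest library (dark, CSS; green, the 6 FBS libraries). RPS27L, CCNG1, SESN1 and TP53INP1 sit highest in CSS and PLK3 lowest.

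The knockdown comparisons ask which of these genes differ between SIRT1 knockdown and NTC cells. In stripped serum with vehicle, 8 of the 31 members rose in knockdown 10 (25.8%, against 15.5% of all genes tested) and 4 fell (12.9%, against 19.1% of all genes). Under DHT, 8 rose (25.8%; all genes 19.5%) and 8 fell (25.8%; all genes 23.5%). Under DHT plus enzalutamide, 10 rose (32.3%; all genes 15.4%) and 3 fell (9.68%; all genes 19.2%). The median log2 fold change of the members was 0.07, -0.0059 and 0.06, against -0.0045, -0.0016 and 0.0019 over all genes. BBC3, BCL2L1, TP53I3, TP53INP1, XPC and ACER2 were called higher in all 3 conditions, and MDM4, TRIAP1 and PLK2 were called lower in all 3. Of the rest, 10 members were called in 1 or 2 or in both directions, and 12 in none. The share of all genes with each of these patterns was not counted, so the patterns are not shown to be particular to the members. The 3 comparisons use separate libraries, but of the same NTC and knockdown 10 populations and with a shared estimate of the spread. Same-numbered libraries of different CSS groups also deviated together, to varying degrees (correlation from 0.066 to 0.661 over 45 pairs, median 0.352). Agreement between the conditions is thus not independent. The members thus did not move as a block: the p53 brakes, for example, held MDM4 among the genes that fell and MDM2 among those not called. With the replicate number as a block, the vehicle count went from 12 members to 20 (14 higher, 6 lower), while all genes called went from 5038 to 6558 of 14558 (3086 higher, 3472 lower). Under DHT the members went from 16 to 18 and all genes from 6266 to 7543, and with enzalutamide from 13 to 19 and from 5033 to 6423. In fits without the block, leaving out knockdown library 3 or NTC library 3 took the count under DHT plus enzalutamide from 13 to 8. All genes called went from 5033 to 4048 and 4029. Without library 2 of the DHT-treated knockdown, the library that stood apart, the DHT count was 15 (7 higher, 8 lower), with 5774 of all genes called.

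**Figure D2:**
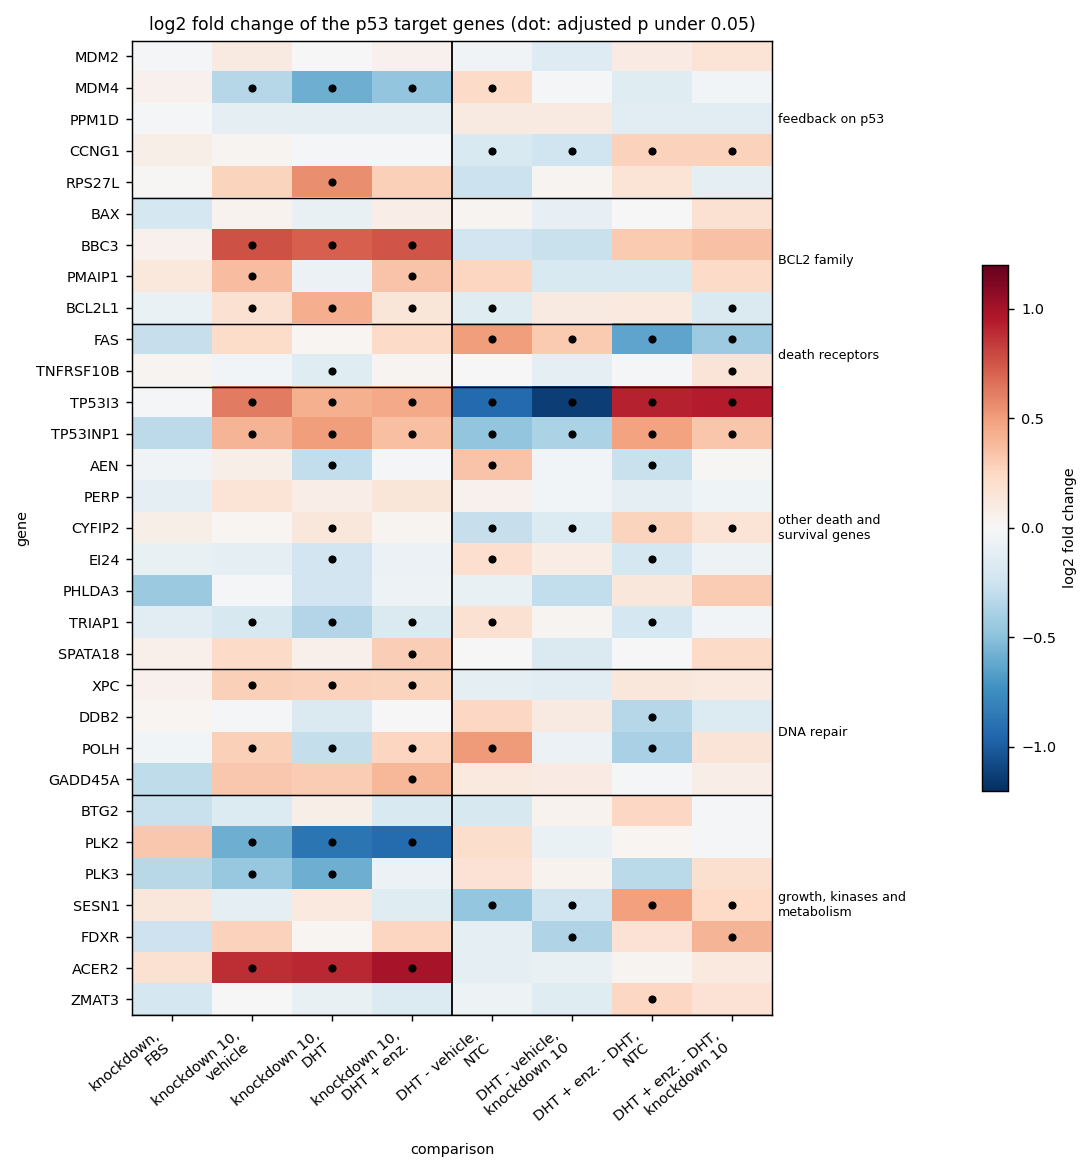
Fitted log2 fold change of each p53 target gene (rows, grouped by role) in 4 knockdown comparisons (left of the line) and 4 androgen comparisons (right), red for higher and blue for lower; a black dot marks an adjusted p under 0.05. ACER2 and BBC3 carry the darkest red among the knockdown columns in CSS, PLK2 the darkest blue, and TP53I3 changes colour between the DHT and the enzalutamide columns.

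The members that the block added in CSS are named here, since the text by role below gives the calls without it. With vehicle these were GADD45A (log2 fold change 0.32, adjusted p = 0.00095), FDXR (0.27, 0.0195), RPS27L (0.26, 0.0379), SPATA18 (0.23, 0.0492), FAS (0.22, 0.0372) and PERP (0.16, 0.00229), all higher. BTG2 (-0.17, 0.0125) and EI24 (-0.12, 0.0426) were lower there. Under DHT the block added GADD45A (0.31, 0.00111) and PHLDA3 (-0.24, 0.0465). With enzalutamide it added RPS27L (0.28, 0.0261), FDXR (0.26, 0.0272), FAS (0.22, 0.0413) and PERP (0.14, 0.00682), which were higher, and BTG2 (-0.19, 0.00573) and ZMAT3 (-0.17, 0.0293), which were lower. Each of these members had the same direction with and without the block.

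Among the genes that feed back on p53, MDM4, the MDM2 relative that masks p53's activation domain, fell in each CSS condition. In vehicle, MDM4 read 51.3, 52.9 and 51.8 CPM in NTC and 37.6, 45.7 and 39.5 in knockdown 10. Under DHT the NTC libraries read 60.7, 61.3 and 61.0 CPM and the knockdown libraries 41.2, 41.2 and 39.3. With enzalutamide added the readings were 56.6, 48.6 and 60.5 CPM against 37.2, 40.9 and 41.1. The groups did not overlap in any of the 3, and the log2 fold changes were -0.35 (SE 0.08, adjusted p = 0.00171), -0.59 (adjusted p = 7.37e-06) and -0.48 (adjusted p = 0.000105). MDM2, the ubiquitin ligase that degrades p53 and a common readout of p53 activity, was called in no knockdown comparison.

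MDM2 read 193, 204 and 188 CPM in NTC and 192, 224 and 216 in knockdown 10 with vehicle. Under DHT it read 190, 190 and 189 CPM against 185, 178 and 205, and with enzalutamide 205, 204 and 203 against 204, 216 and 216. The groups overlapped in all 3, and approximate 95% intervals of the log2 fold change ran from -0.005 to 0.229, from -0.123 to 0.112 and from -0.061 to 0.173. They were made from the SE by a normal approximation, so they are somewhat narrower than the test implies. Without library 1 of knockdown 10 in vehicle, MDM2 was called higher there (log2 fold change 0.19, adjusted p = 0.0231). PPM1D, the phosphatase WIP1 that switches p53 off, had log2 fold changes of -0.12 in each CSS condition (adjusted p from 0.209 to 0.236), and CCNG1, which recruits a phosphatase to MDM2, lay between -0.02 and 0.04. Without the block RPS27L was called under DHT and in neither other CSS condition. On the compared groups alone it was called with vehicle too (0.27, adjusted p = 0.0303) and with enzalutamide (0.29, 0.0044). With vehicle it read 176, 186 and 169 CPM in NTC and 192, 245 and 202 in knockdown 10 (log2 fold change 0.27, adjusted p = 0.159), and with enzalutamide 161, 175 and 162 against 187, 215 and 204 (0.28, adjusted p = 0.137). Under DHT it stood at 139, 154 and 150 CPM in NTC and 155, 286 and 214 in knockdown 10. Its 3 knockdown libraries spread widely there, and the log2 fold change of 0.56 (adjusted p = 0.00425) was 0.32 (adjusted p = 0.031) without knockdown library 2.

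In the BCL2 family, BBC3 (PUMA) and PMAIP1 (NOXA) encode BH3-only proteins that promote death by neutralising survival proteins such as the one from BCL2L1 (BCL-xL), and BAX opens the mitochondrial membrane. BBC3 read 8.10, 9.19 and 10.5 CPM in NTC and 13.8, 17.95 and 15.3 in knockdown 10 with vehicle. Its readings under DHT were 6.51, 9.60 and 7.60 CPM against 9.15, 15.6 and 14.2. With enzalutamide they were 9.27, 10.3 and 9.94 CPM against 13.9, 19.5 and 16.3. Only under DHT did the groups overlap, through knockdown library 1, and BBC3 was 1.69-, 1.65- and 1.68-fold higher (log2 fold change 0.76, 0.72 and 0.75, SE 0.17 to 0.18, adjusted p = 0.00277, 0.00389 and 0.00287).

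The survival gene BCL2L1 rose beside the death gene BBC3. It read 129, 127 and 130 CPM in NTC and 153, 137 and 150 in knockdown 10 with vehicle, 121, 113 and 115 against 168, 152 and 153 under DHT, and 127, 127 and 124 against 145, 134 and 140 with enzalutamide. No groups overlapped, and the log2 fold changes were 0.19, 0.43 and 0.15 (adjusted p = 0.01, 3.83e-06 and 0.0365). The last of these calls was lost without any 1 of the NTC libraries or of knockdown libraries 1 and 3 (adjusted p from 0.056 to 0.11), and without the low-count filter (0.0618). PMAIP1 rose with vehicle (17.6, 14.4 and 13.7 CPM in NTC, 18.7, 18.6 and 21.8 in knockdown 10) and with enzalutamide (19.7, 14.7 and 13.7 against 21, 19.7 and 20.5). These log2 fold changes were 0.37 (adjusted p = 0.0198) and 0.35 (adjusted p = 0.0279), while under DHT the value was -0.07 (adjusted p = 0.665). The vehicle call of PMAIP1 was lost without NTC library 2 or 3 or knockdown library 3 (adjusted p from 0.067 to 0.092), and the enzalutamide call without NTC library 2 or 3 or knockdown library 1 or 3 (0.066 to 0.15), whereas without NTC library 1 the log2 fold change there was 0.54. BAX was not called: its log2 fold changes were 0.05, -0.09 and 0.08, and the approximate 95% intervals, made as for MDM2, reached from -0.34 to 0.33 over the 3 conditions.

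Of the death receptors, FAS binds the FAS ligand and TNFRSF10B (DR5) binds TRAIL. FAS was called in no knockdown comparison without the block. It read 11.4, 11.5 and 10.6 CPM in NTC and 13.1, 13.4 and 12.4 in knockdown 10 with vehicle, without overlap, and its log2 fold change of 0.22 had an adjusted p of 0.0708. TNFRSF10B fell under DHT (222, 215 and 212 CPM in NTC, 194, 202 and 192 in knockdown 10), by 0.14 on the log2 scale (adjusted p = 0.02). That call was lost without NTC library 1 (adjusted p = 0.056) or knockdown library 3 (0.052) and on the compared groups alone (0.15), and in the other conditions the value was -0.04 and 0.03.

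TP53INP1 rose in each CSS condition. With vehicle it read 600, 663 and 602 CPM in NTC and 756, 892 and 834 in knockdown 10. Under DHT it read 430, 482 and 434 CPM against 588, 643 and 674. The values with enzalutamide were 600, 638 and 636 CPM against 728, 858 and 815. Every knockdown library stood above every NTC library of its condition, with log2 fold changes of 0.41, 0.50 and 0.36 (adjusted p = 0.000414, 4.33e-05 and 0.00143).

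TP53I3 (PIG3), an oxidoreductase that raises reactive oxygen, rose from 5.14, 4.52 and 4.55 CPM to 6.92, 7.13 and 7.88 with vehicle. Under DHT it read 2.22, 2.39 and 2.83 CPM in NTC and 2.58, 4.13 and 3.26 in knockdown 10, and with enzalutamide 4.71, 4.78 and 4.62 against 6.21, 6.77 and 6.29. The groups overlapped under DHT and nowhere else, with log2 fold changes of 0.63 (adjusted p = 0.00115), 0.43 (0.0268) and 0.45 (0.0125). The DHT call was lost without NTC library 1 or 2 or knockdown library 2 or 3 (adjusted p from 0.055 to 0.18), and on the compared groups alone (0.122), and the log2 fold change without knockdown library 2 was 0.25.

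TRIAP1, a small survival protein that blocks apoptosome formation, moved the other way. It read 56.0, 52.2 and 50.2 CPM in NTC and 48.0, 46.1 and 44.3 in knockdown 10 with vehicle, 65.4, 57.04 and 57.25 against 47.2, 47.3 and 46.6 under DHT, and 54.0, 50.8 and 50.3 against 47.2, 43.8 and 46.8 with enzalutamide. The log2 fold changes were -0.20 (adjusted p = 0.0178), -0.35 (0.00016) and -0.17 (0.0355), with no overlap. The vehicle call was lost without NTC library 1 or knockdown library 2 or 3 (adjusted p from 0.061 to 0.097), and the enzalutamide call without any 1 of its 6 libraries (0.052 to 0.18). AEN, an exonuclease of apoptotic cells, and EI24, a protein of the endoplasmic reticulum, fell under DHT and, without the block, in neither other CSS condition, by 0.30 (adjusted p = 0.00319) and 0.23 (adjusted p = 0.0185) on the log2 scale. EI24 was no longer called without NTC library 1 (adjusted p = 0.052) or knockdown library 2 (0.12), where its log2 fold change was -0.14. CYFIP2, a member of the actin-regulating WAVE complex, rose under DHT (log2 fold change 0.13, adjusted p = 0.0186), a call lost without NTC library 1 (0.13) or 3 (0.062). On the compared groups alone the DHT calls of EI24 (adjusted p = 0.0817) and CYFIP2 (0.077) were lost.

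SPATA18, which takes part in the removal of damaged mitochondria, rose with enzalutamide, from 12.2, 9.70 and 10.4 CPM to 12.95, 13.3 and 13.5 (log2 fold change 0.30, adjusted p = 0.0183), a call lost without NTC library 2 or 3 or knockdown library 3 (0.0535 to 0.0816). PERP, a membrane protein of desmosomes, read 0.17, 0.08 and 0.14 on the log2 scale and PHLDA3, an inhibitor of AKT, -0.03, -0.23 and -0.06, and neither was called without the block. PHLDA3 under DHT rested on 1 library: the knockdown libraries read 26.1, 41.7 and 27.8 CPM and the NTC libraries 37.2, 38.4 and 36.8, and without knockdown library 2 the log2 fold change was -0.47 (adjusted p = 7.47e-06).

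The DNA repair members had knockdown differences of at most 1.32-fold in CSS. XPC, which recognises damage in nucleotide excision repair, rose in each condition. It read 85.9, 85.3 and 90.3 CPM in NTC and 94.9, 116 and 109 in knockdown 10 with vehicle, 76.9, 84.4 and 79.2 against 91.9, 99.2 and 101 under DHT, and 93.0, 85.5 and 84.8 against 97.2, 112 and 107 with enzalutamide. The groups stood apart in all 3, and the log2 fold changes were 0.29, 0.28 and 0.27 (adjusted p = 0.00418, 0.00403 and 0.0075). GADD45A, a stress sensor that slows division and aids repair, rose with enzalutamide (11.6, 13.97 and 13.45 CPM to 14.1, 20.01 and 17.4; log2 fold change 0.40, adjusted p = 0.0296). Its values with vehicle and DHT were 0.33 (adjusted p = 0.0772) and 0.31 (0.0822), and the enzalutamide call was lost without NTC library 1 or 3 or knockdown library 2 or 3 (0.052 to 0.16). DDB2, XPC's partner in finding ultraviolet lesions, was called in none, with log2 fold changes of -0.03, -0.17 and 0.01. POLH, the polymerase that copies past ultraviolet lesions, changed direction between conditions and is taken up with the androgen comparisons.

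Of the growth, kinase and metabolism members, ACER2, a Golgi ceramidase that makes sphingosine, had the largest absolute log2 fold change of the 31 with vehicle, under DHT and with enzalutamide. It read 20.03, 23.2 and 21.2 CPM in NTC and 37.4, 43.5 and 38.4 in knockdown 10 with vehicle. Under DHT its values were 19.5, 21.3 and 19.2 CPM against 35.4, 37.0 and 39.9, and with enzalutamide 21.6, 19.8 and 19.8 against 37.3, 43.5 and 41.0. The groups stood well apart in each condition, and ACER2 was 1.85-, 1.88- and 1.99-fold higher (log2 fold change 0.89, 0.91 and 0.99, SE 0.08, adjusted p = 2.19e-07, 1.12e-07 and 6.21e-08).

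PLK2, a polo-like kinase that answers to stress and to growth factors, had the largest fall. It read 36.3, 33.6 and 39.4 CPM in NTC and 23.2, 27.2 and 22.6 in knockdown 10 with vehicle, 41.4, 41.4 and 44.0 against 19.4, 19.6 and 29.9 under DHT, and 42.1, 40.5 and 46.2 against 18.8, 25.04 and 24.03 with enzalutamide. Without overlap anywhere, the log2 fold changes were -0.58, -0.88 and -0.92 (adjusted p = 0.00264, 5.3e-05 and 4.66e-05). PLK3 also fell, with vehicle (3.36, 3.60 and 3.45 CPM to 2.54, 2.27 and 2.80; log2 fold change -0.45, adjusted p = 0.0412) and under DHT (3.85, 4.51 and 3.39 to 2.14, 3.04 and 2.62; -0.59, adjusted p = 0.00815). With enzalutamide its groups overlapped (log2 fold change -0.07, adjusted p = 0.762). The vehicle call of PLK3 was lost without any 1 of the NTC libraries or of knockdown libraries 1 and 2 (adjusted p from 0.067 to 0.15), with DESeq2 (0.051) and without the low-count filter (0.0526). BTG2, an antiproliferative cofactor, SESN1, FDXR (ferredoxin reductase of the mitochondrion) and ZMAT3, an RNA-binding growth suppressor, were not called in CSS without the block. FDXR had log2 fold changes of 0.28, 0.03 and 0.26, the first with an adjusted p of 0.0513 that went to 0.0385 with DESeq2, and on the compared groups alone it was called with vehicle (0.28, adjusted p = 0.0033) and with enzalutamide (0.27, 0.00719).

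**Figure D3:**
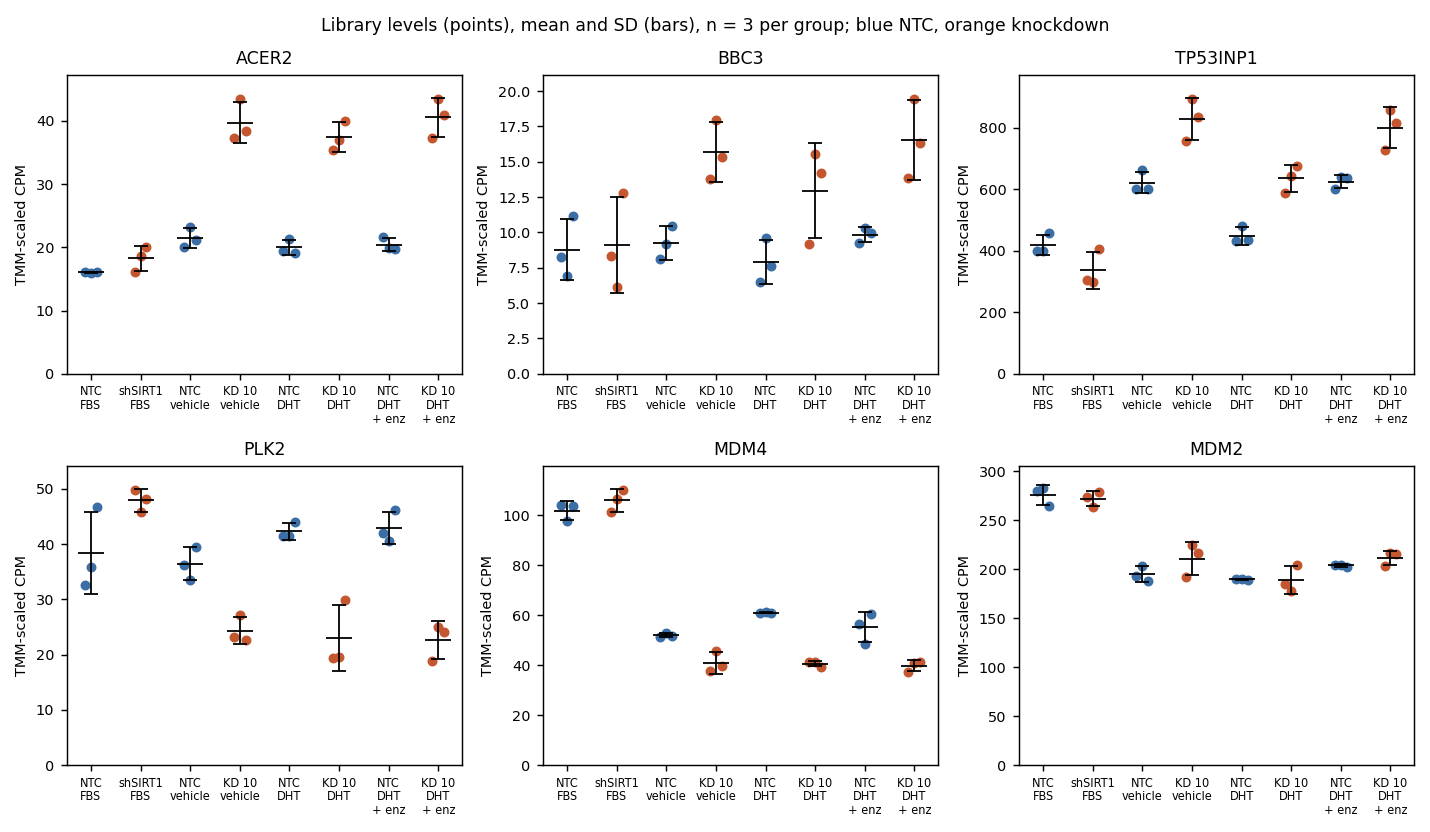
TMM-scaled CPM of 6 p53 target genes in the 8 groups; each point is a library, the black bars are the mean and SD of 3 libraries, blue is NTC and orange the knockdown. ACER2, BBC3 and TP53INP1 stand higher and PLK2 and MDM4 lower in knockdown 10 than in NTC cells within each CSS condition, while the FBS pairs of all 6 genes and the MDM2 pairs lie close together or overlap.

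In FBS, 0 of the 31 members were called in shSIRT1 cells, where 0.509% of all genes rose and 2.21% fell. At an unadjusted p under 0.05 the edgeR test gave 7 of 31 members and 2423 of 14329 genes, and DESeq2 called 1, PHLDA3 (log2 fold change -0.44, adjusted p = 0.0244). The members' median log2 fold change was -0.02, with a range from -0.45 to 0.32. ACER2, the most raised member in CSS, read 16.1, 15.9 and 16.04 CPM in NTC and 16.05, 18.7 and 20.02 in shSIRT1 cells (log2 fold change 0.19, adjusted p = 0.393). PLK2 read 32.6, 35.8 and 46.7 CPM in NTC against 49.8, 45.8 and 48.2 in shSIRT1, overlapping through 1 NTC library (log2 fold change 0.32, adjusted p = 0.214). TP53INP1 stood at 398, 400 and 458 CPM in NTC and 305, 298 and 405 in shSIRT1 cells (log2 fold change -0.32, adjusted p = 0.208). In both genes library 3 stood high in NTC, and in TP53INP1 also in shSIRT1.

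With the replicate number as a block, all genes called in FBS went from 389 to 1676, and 6 members were called: PLK2 higher (log2 fold change 0.33, adjusted p = 0.0331), and BTG2 (-0.27, 0.0117), GADD45A (-0.30, 0.0368), PHLDA3 (-0.45, 0.0148), TP53INP1 (-0.33, 0.00179) and ZMAT3 (-0.22, 0.0204) lower. Without the block, the count was 4 without NTC library 3 (BAX, FDXR and PHLDA3 lower, PLK2 higher). It was 3 without shSIRT1 library 3 (BTG2, PHLDA3 and TP53INP1 lower). All genes called in these 2 fits were 926 and 425, against 389 with every library. Leaving out library 3 keeps only the near-alike libraries 1 and 2 in that group. With libraries 1 and 2 of each group summed, 44 of all genes and 0 members were called without the block. The block takes same-numbered libraries as pairs, yet NTC library 1 deviated with shSIRT1 library 2 (correlation 0.222) as much as with library 1 (0.21).

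Whether the knockdown change differed between the sets was tested in a joint fit of the FBS and the vehicle libraries, as the change in knockdown 10 minus the change in shSIRT1 cells. Serum, sequencing depth and the name of the knockdown all differ between the sets and cannot be told apart. SIRT1 itself fell less in knockdown 10 than in shSIRT1 cells (log2 difference 0.73, adjusted p = 0.00156). The difference was higher for 9 of 31 members (all genes 7.47%) and lower for 2 (all genes 6.29%), and its median over the members was 0.25, against 0.03 over all genes. TP53INP1 had the largest positive difference, 0.77 (SE 0.15, adjusted p = 0.00316), with a knockdown log2 fold change of 0.41 in CSS and -0.32 in FBS. ACER2 followed at 0.74 (adjusted p = 0.00186), then GADD45A at 0.67 (0.0106), FDXR at 0.57 (0.00311), FAS at 0.54 (0.0268), PHLDA3 at 0.46 (0.036), POLH at 0.36 (0.0193), PERP at 0.32 (0.0429) and BCL2L1 at 0.31 (0.0213). PLK2 (-0.86, adjusted p = 0.00249) and MDM4 (-0.36, adjusted p = 0.0208) had negative differences. The block gave 15, adding BBC3 (0.76, adjusted p = 0.00215), RPS27L (0.30, 0.0195), XPC (0.27, 0.0159) and ZMAT3 (0.25, 0.018), while all genes called went from 2112 to 3937. Without it, the count of 11 went to 6 without FBS library 2 of NTC or of shSIRT1, to 7 without FBS library 1 of either or vehicle library 3 of knockdown 10, and to 6 with FBS libraries 1 and 2 summed. All genes called in these fits ran from 1118, with the libraries summed, to 1599, without FBS library 2 of NTC. TP53INP1, ACER2, GADD45A, FDXR and PLK2 kept their calls under each alternative tried, and the other 6 lost theirs under at least 4.

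DHT was compared with vehicle to see how the members answer to androgen, first in NTC cells. KLK3 (PSA), the classic androgen-induced gene, averaged 25.01 ± 2.11 CPM with vehicle, 234.5 ± 24.3 with DHT and 38.7 ± 7 with enzalutamide in NTC cells (SD, n = 3), and 5.91 ± 0.931, 93.1 ± 15.95 and 12.7 ± 1.81 in knockdown 10. In NTC cells 6 of 31 rose (19.4%; all genes 17.4%) and 6 fell (19.4%; all genes 12.5%), and the members' median log2 fold change was -0.0025. Those that fell were TP53I3, TP53INP1, SESN1, CYFIP2, CCNG1 and BCL2L1. Those that rose were POLH, FAS, AEN, MDM4, EI24 and TRIAP1. In knockdown 10, 1 member rose (3.23%; all genes 13.3%) and 6 fell (19.4%; all genes 8.92%), with a median of -0.08. FAS rose, and TP53I3, TP53INP1, FDXR, CCNG1, SESN1 and CYFIP2 fell.

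Adding enzalutamide to DHT was compared with DHT alone. In NTC cells 6 members rose (19.4%; all genes 12.6%) and 6 fell (19.4%; all genes 16.6%), and in knockdown 10, 7 rose (22.6%; all genes 8.08%) and 2 fell (6.45%; all genes 12.2%). The DHT and the enzalutamide comparisons share their DHT libraries, so opposite signs in the pair are not separate evidence, and both sets of values are given side by side. With the replicate block the DHT count in knockdown 10 went from 7 to 11 (1 higher, 10 lower; all genes from 3236 to 4674), adding PHLDA3 (-0.30, adjusted p = 0.0226), BBC3 (-0.28, 0.0356), MDM2 (-0.16, 0.0312) and TNFRSF10B (-0.11, 0.0389). In NTC cells it went from 12 to 15 (all genes from 4352 to 5859), adding DDB2 (0.25, 0.0164), RPS27L (-0.26, 0.0421) and BTG2 (-0.20, 0.00495). For enzalutamide it went from 12 to 16 in NTC cells (all genes from 4252 to 5870), adding BBC3 (0.33, 0.0202), BTG2 (0.24, 0.000832), BCL2L1 (0.11, 0.0317) and PERP (-0.12, 0.0246). In knockdown 10 it went from 9 to 13 (all genes from 2949 to 4518), adding BBC3 (0.36, 0.0105), PHLDA3 (0.32, 0.0194), ZMAT3 (0.17, 0.0371) and MDM2 (0.16, 0.025). Without the block, the DHT count in knockdown 10 was 4 without its vehicle library 3 and 8 without its DHT library 2 (and 11 in place of 9 for enzalutamide), and without NTC vehicle library 2 the DHT count in NTC cells went from 12 to 7. All genes called for these counts were, in the same order, 2274, 3744, 3622 and 3140. Fitted on the compared groups alone, the counts in knockdown 10 were 3 for DHT and 4 for enzalutamide, with 1649 and 1550 of all genes called.

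TP53I3 had the largest androgen difference of the 31. In NTC cells it went from 5.14, 4.52 and 4.55 CPM in vehicle to 2.22, 2.39 and 2.83 with DHT, and stood at 4.71, 4.78 and 4.62 with enzalutamide. In knockdown 10 it went from 6.92, 7.13 and 7.88 CPM to 2.58, 4.13 and 3.26, and stood at 6.21, 6.77 and 6.29 with enzalutamide. Every DHT library lay below every library of the other treatments of its cells: TP53I3 was 1.91-fold lower with DHT in NTC cells (log2 fold change -0.93, adjusted p = 7.7e-05) and 2.19-fold lower in knockdown 10 (-1.13, adjusted p = 1.02e-05). With enzalutamide the log2 fold changes were 0.92 (adjusted p = 8.4e-05) and 0.95 (adjusted p = 8.19e-05).

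SESN1 read 305, 345 and 339 CPM in NTC with vehicle, 216, 256 and 247 with DHT, and 308, 344 and 362 with enzalutamide. In knockdown 10 it read 315, 293 and 310, then 243.6, 248.9 and 286.9, then 308, 291 and 320 CPM. The DHT libraries were lowest in both cell populations, with log2 fold changes of -0.46 (adjusted p = 0.000233) and -0.24 (0.0385) for DHT, and 0.50 (0.000112) and 0.24 (0.0404) for enzalutamide. The DHT call in knockdown 10 was lost without library 1 or 3 of its vehicle group or library 1 or 2 of its DHT group (0.078 to 0.12), and the enzalutamide call without DHT library 1 or 2 or enzalutamide library 1 or 3 (0.073 to 0.13), and both on the compared groups alone (0.0682 and 0.0909). TP53INP1 fell with DHT by 0.47 (adjusted p = 0.000132) in NTC and 0.38 (0.00142) in knockdown 10 on the log2 scale, and its enzalutamide values were 0.48 (0.000115) and 0.33 (0.00443).

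CCNG1 read 354, 361 and 334 CPM in NTC with vehicle, 317, 305 and 301 with DHT, and 361, 394 and 362 with enzalutamide. In knockdown 10 the values were 349, 364 and 362, then 296, 297 and 320, then 364, 362 and 377 CPM. CCNG1, which no knockdown comparison called, thus differed with DHT in both populations, at log2 fold changes of -0.18 (adjusted p = 0.0102) and -0.24 (0.00249), and by 0.27 with enzalutamide in both (0.000479 and 0.000848). Without NTC vehicle library 2 the first of these calls was lost (0.051). CYFIP2 read 101, 103 and 105 CPM in NTC with vehicle and 82.2, 88.1 and 84.8 with DHT, and in knockdown 10 it read 101, 106 and 107 and then 92.7, 95.4 and 91.7. Its DHT log2 fold changes were -0.28 (adjusted p = 8.98e-05) and -0.17 (0.00891), and its enzalutamide values 0.26 (0.000151) and 0.16 (0.0128). Both knockdown 10 calls of CYFIP2 were lost on the compared groups alone (0.0744 and 0.116).

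FAS went the other way. In NTC cells it read 11.4, 11.5 and 10.6 CPM with vehicle, 14.85, 16.2 and 16.45 with DHT, and 10.0, 10.6 and 9.99 with enzalutamide. In knockdown 10 it read 13.1, 13.4 and 12.4 CPM, then 13.99, 16.1 and 18.3, then 11, 11.6 and 13.1. The DHT libraries stood highest in both populations, with log2 fold changes of 0.51 (adjusted p = 0.000389) and 0.31 (0.0194) for DHT and -0.63 (4.08e-05) and -0.44 (0.0024) for enzalutamide. The DHT call in knockdown 10 was lost without library 1 or 3 of its vehicle group (0.0505 and 0.105) or DHT library 3 (0.16), where the log2 fold change was 0.19, and on the compared groups alone (0.125).

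FDXR was called in knockdown 10 for both drugs: it read 31.5, 33.0 and 33.0 CPM with vehicle, 19.8, 31.6 and 24.2 with DHT, and 32.0, 34.0 and 34.5 with enzalutamide. The log2 fold changes were -0.36 (adjusted p = 0.0205) and 0.41 (0.0115), and both calls were lost on the compared groups alone (0.117 and 0.0952). The DHT libraries of FDXR were spread, with library 2 alone inside the vehicle range: without library 1 the DHT value was -0.24 (0.075), without library 3 it lost its call (0.057), as it did without vehicle library 3 (0.0501), and without library 2 it was -0.57 (4.46e-05). BCL2L1 had a DHT log2 fold change of -0.14 in NTC cells (adjusted p = 0.047), a call lost without any 1 of its libraries other than NTC DHT library 1 (0.081 to 0.13), and without the low-count filter (0.0758). In knockdown 10 its DHT value was 0.10 (0.175) and its enzalutamide value -0.17 (0.0254), the latter lost without DHT library 1 (-0.11, 0.2) or enzalutamide library 2 or 3 (0.17 and 0.094) or on the compared groups alone (0.133).

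Several members were called with DHT in NTC cells and not in knockdown 10. AEN had log2 fold changes of 0.34 (adjusted p = 0.00186) and -0.03, MDM4 of 0.23 (0.0267) and -0.01, EI24 of 0.20 (0.0489) and 0.09, and TRIAP1 of 0.18 (0.0286) and 0.03. With enzalutamide in NTC cells AEN (-0.27, adjusted p = 0.00965), EI24 (-0.21, 0.0365), TRIAP1 (-0.21, 0.0122) and DDB2 (-0.34, 0.0156) fell and ZMAT3 rose (0.25, 0.0343), and in knockdown 10 TNFRSF10B rose (0.15, 0.0263). A test of the difference between the cell populations did not call AEN (DHT, adjusted p = 0.167), MDM4 (0.399), EI24 (0.773) or TRIAP1 (0.547), so these members are not shown to differ in their answer to DHT. The calls of MDM4 (DHT) and of ZMAT3 and EI24 (enzalutamide) were lost without any 1 library of the groups compared (0.059 to 0.07, 0.053 to 0.12 and 0.052 to 0.12). EI24's DHT call was lost without any 1 library other than NTC vehicle library 1 (0.067 to 0.19), with RLE scaling (0.0579) and without the low-count filter (0.0546), and TRIAP1's without vehicle library 2 or 3 or DHT library 1 (0.099 to 0.2, with a log2 fold change of 0.11 without the last). AEN's enzalutamide call was lost without DHT library 1 (0.061), TRIAP1's without that library (0.1) or enzalutamide library 2 or 3 (0.052 and 0.06), and DDB2's without DHT library 3 or enzalutamide library 1 or 3 (0.06 to 0.084). The TNFRSF10B call was lost without DHT library 1 or 3 or enzalutamide library 2 (0.051 to 0.052), and on the compared groups alone that of TNFRSF10B (0.132) and the DHT call of TRIAP1 (0.0693) were lost.

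**Figure D4:**
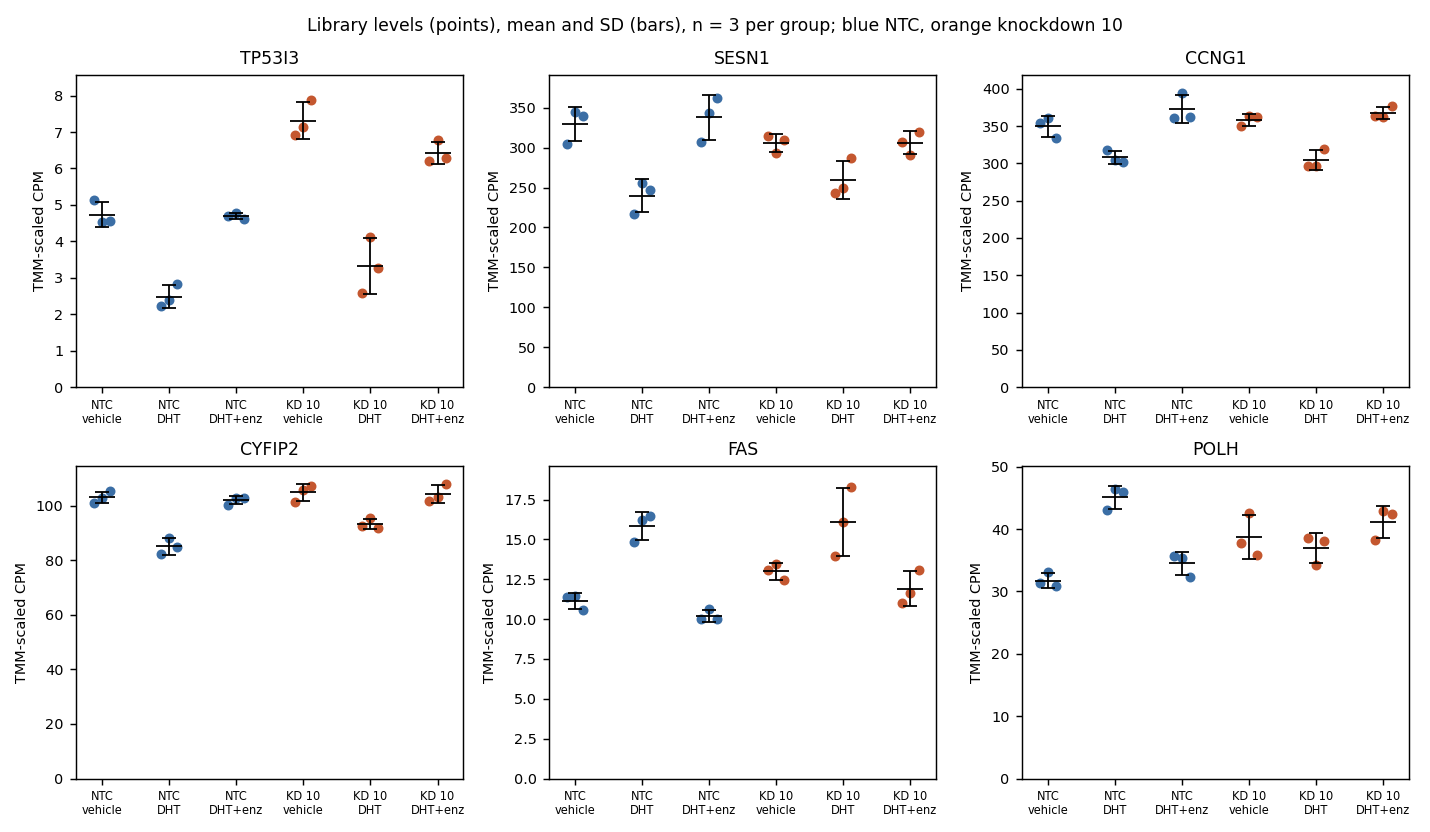
TMM-scaled CPM of 6 p53 target genes with vehicle, DHT, and DHT plus enzalutamide in NTC (blue) and knockdown 10 (orange) cells; points are libraries, black bars the mean and SD of 3. TP53I3, SESN1, CCNG1 and CYFIP2 dip with DHT in both populations, FAS peaks with DHT, and POLH peaks with DHT in NTC cells alone.

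POLH was the 1 member whose answer to androgen was called different between the populations. In NTC cells it read 31.3, 33.1 and 30.9 CPM with vehicle, 43.0, 46.4 and 45.9 with DHT, and 35.8, 35.4 and 32.4 with enzalutamide. In knockdown 10 it read 37.8, 42.6 and 35.9 CPM, then 38.6, 34.3 and 38.1, then 38.2, 42.9 and 42.5. The NTC libraries with DHT thus stood above all other libraries of the set, and the knockdown libraries lay near each other under all 3 treatments.

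For DHT the log2 fold change of POLH was 0.51 in NTC (adjusted p = 2.86e-05) and -0.07 in knockdown 10 (0.555), a difference of -0.57 (SE 0.10, adjusted p = 0.0235), where 0.158% of all genes had a lower and 0.0412% a higher difference called. For enzalutamide the values were -0.39 (0.000411) and 0.16 (0.129), a difference of 0.54 (SE 0.10, adjusted p = 0.0302), where 0.268% of all genes were called higher and 0.0824% lower. Both differences use the same DHT libraries. The same numbers give knockdown changes of 0.29 with vehicle (adjusted p = 0.00434), -0.29 under DHT (0.00321) and 0.26 with enzalutamide (0.00885). The DHT difference lost its call without any 1 of the NTC vehicle libraries or NTC DHT libraries 2 and 3 (adjusted p from 0.052 to 0.087) and on the compared groups alone (0.11). The enzalutamide difference lost it without library 2 or 3 of the NTC DHT, NTC enzalutamide or knockdown enzalutamide groups (0.051 to 0.076) and on the compared groups alone (0.057). The log2 differences in these fits ran from -0.61 to -0.56 and from 0.51 to 0.57. With the replicate block BCL2L1 was called as well, at 0.25 for DHT (adjusted p = 0.0274) and -0.29 for enzalutamide (0.0103), and without library 2 of the DHT-treated knockdown PHLDA3 was called at -0.45 (0.0154) and 0.41 (0.0133) and FDXR, for enzalutamide, at 0.43 (0.0486).

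Without the block, MDM2, PPM1D, BAX and BTG2 passed in none of the 11 comparisons. Over the 18 CSS libraries they ranged from 178 to 224 CPM (MDM2), 21.9 to 27.85 (PPM1D), 22.4 to 33.6 (BAX) and 71.3 to 100.1 (BTG2). Each was called under at least 1 alternative, for MDM2 the difference with DHT in knockdown 10, which DESeq2 gave as -0.17 (adjusted p = 0.0283).

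Other genes of the pathway were read from lists outside the 31. CDKN1A (p21), which binds cyclin-dependent kinases and stops the cycle, rose from 249.7 ± 21.2 to 615 ± 88.3 CPM with vehicle (2.46-fold, adjusted p = 2.58e-06), more than any of the 31, and 2.28- and 2.25-fold under DHT and with enzalutamide (3.88e-06 and 7.98e-06). In FBS it read 202 ± 19.8 in NTC and 144 ± 30.5 in shSIRT1 cells (log2 fold change -0.49, adjusted p = 0.0956). Of 44 further p53 targets, CDKN1A among them, 38 were tested in CSS: 10 rose and 6 fell with vehicle (26.3% and 15.8%, against 15.5% and 19.1% of all genes), 13 and 8 under DHT (34.2% and 21.1%, against 19.5% and 23.5%), and 7 and 7 with enzalutamide (18.4% each, against 15.4% and 19.2%). Of the 37 tested in FBS, edgeR called 0, with 8 at an unadjusted p under 0.05, against 2423 of all 14329 genes. GDF15, a stress-induced secreted factor (2.06-fold, adjusted p = 5.11e-05), RETSAT, a retinol saturase (1.54-fold, 1.06e-07), and SESN2, a second sestrin (1.41-fold, 0.000557), were among those that rose with vehicle. Of 21 genes that act on p53, 20 were tested, and 2 rose and 5 fell with vehicle (10% and 25%), 7 and 7 under DHT (35% each), and 2 and 5 with enzalutamide (10% and 25%), beside the same shares of all genes. The checkpoint kinase genes CHEK1 (log2 fold change -1.05, adjusted p = 1.13e-05) and CHEK2 (-0.73, 5e-05) and PRKDC, a kinase of DNA break repair (-0.32, 0.000171), fell with vehicle, and DAXX, a chaperone that binds MDM2, rose (0.43, 4.34e-05).

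All 30 genes of a list that p53 lowers through p21, which drive replication and mitosis, fell in knockdown 10 in each CSS condition, with medians of -1.29, -1.45 and -1.29 on the log2 scale. Of all genes, 19.1%, 23.5% and 19.2% were called lower there. All 30 also rose with DHT (medians 1.53 and 1.48 in NTC and knockdown 10) and fell with enzalutamide (-1.82 and -1.62). Of all genes, 17.4% and 13.3% were called higher with DHT, and 16.6% and 12.2% lower with enzalutamide. In FBS edgeR called 0 of the 30, with 2 at an unadjusted p under 0.05, against the same 2423 of 14329 genes. Their summed level was 941 to 1113 CPM in NTC with vehicle and 2777 to 3136 with DHT, against 487 to 521 and 954 to 1278 in knockdown 10. Such genes are known to track the share of dividing cells, and the part of that share in the members' values was not tested.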

How the data were processed

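Stranded mRNA libraries were made from about 500 ng of total RNA of LNCaP cells, per the labels' protocols. Reads were processed with CASAVA 1.8.2 and RSEM 1.2.31 on hg19, per the submitters' processing notes; the aligner and the strand setting are not given in the sources used here. The authors deposited, per gene and library, an RSEM expected count and TPM (an abundance scaled by gene length). Expected counts were rounded to whole numbers, filtered with filterByExpr (minimum count 10), scaled by TMM and tested with edgeR 4.0.16 (R 4.3.3) by quasi-likelihood tests, two-sided, in 3 fits: 6 FBS libraries (14329 genes), 18 CSS libraries (14558) and 12 FBS and vehicle libraries (15345). All 31 members passed the filter in each. CPM values are TMM-scaled, and the deposited TPM served only to order levels between genes. Alternatives were RLE scaling, no filter, DESeq2 1.42.0, the replicate number as a block, the compared groups alone, FBS libraries 1 and 2 summed, and each library left out. Same-numbered libraries of compared groups deviated together (correlation of deviations from group means at least 0.185 in each of 3 pairs in 8 comparisons). Pairs with different numbers had a median of -0.241 in CSS (up to 0.37) and -0.314 in FBS (up to 0.234). The 3 deviations of a group sum to 0, so these negative medians largely follow from the positive same-number values. They are no separate evidence of pairing. In FBS, NTC library 1 gave 0.21 with shSIRT1 library 1 and 0.222 with library 2, so the pairing of these libraries is not shown. The numbers were taken to pair libraries, and the blocked value is given for each member whose call it changed. Scripts were tested on simulated data. Members by role, context lists and the rule for named genes (called members, largest change first, library values for up to 3 members per role with the lowest adjusted p in the CSS knockdown comparisons, and the lowest adjusted p per context list) were chosen with earlier results of these data known. A further gene that the rule covers is not reported here.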

Additional observations from a re-analysis of the deposited data

Results flagged for a closer look

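In 13 tests of a difference between contrasts, a member passed an adjusted p of 0.05 in edgeR's quasi-likelihood test. The change of POLH with DHT was lower in knockdown 10 than in NTC cells by a log2 difference of -0.57 (adjusted p = 0.0235), and its change with enzalutamide was higher by 0.54 (adjusted p = 0.0302). Both use the same DHT libraries. Of all genes, 0.0412% were called higher and 0.158% lower for DHT, and 0.268% and 0.0824% for enzalutamide. Of 17 alternatives each, the DHT difference of POLH lost its call under 6 and the enzalutamide difference under 7. For the knockdown change in stripped serum with vehicle minus that in FBS, the log2 difference was 0.77 for TP53INP1, 0.74 for ACER2, 0.67 for GADD45A, 0.57 for FDXR, 0.54 for FAS, 0.46 for PHLDA3, 0.36 for POLH, 0.32 for PERP and 0.31 for BCL2L1. It was -0.86 for PLK2 and -0.36 for MDM4. Serum, sequencing depth and the name of the knockdown cannot be told apart in these 11 differences. Of all genes, 7.47% had a higher and 6.29% a lower difference called there. TP53INP1, ACER2, GADD45A, FDXR and PLK2 kept their calls under each alternative tried. FAS, PHLDA3, POLH, PERP, BCL2L1 and MDM4 each lost theirs under at least 4 of 17, and PERP under 12.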

How the results depend on the processing

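Of 94 calls of members, 55 were kept under every alternative run and 39 were lost under at least 1; none of 1112 repeats of a call reversed. The replicate block kept all 94, and lost no call. With the block the members called went from 0 to 6 (knockdown in FBS), 12 to 20 (vehicle), 7 to 11 (DHT in knockdown 10), 1 to 2 (DHT difference) and 1 to 2 (enzalutamide difference), and all genes called from 389 to 1676 (FBS), 2949 to 4518 (enzalutamide in knockdown 10), 29 to 427, 51 to 573 (the differences) and 2112 to 3937 (serum difference). DESeq2 gave 1 member in FBS and 2 for the enzalutamide difference, and 156 and 256 genes for the DHT and enzalutamide differences. On the compared groups alone the members were 3 (DHT) and 4 (enzalutamide) in knockdown 10 and 0 for each difference, and all genes 1649, 1550, 7 and 5. With FBS libraries 1 and 2 summed, 44 genes were called in FBS, and 1118 genes and 6 members for the serum difference. Leaving out 1 library gave, for members, 0 to 4 (FBS), 8 to 11 (knockdown with enzalutamide), 7 to 11 (DHT in NTC), 4 to 8 (DHT in knockdown 10), 0 to 2 (DHT difference), 0 to 3 (enzalutamide difference) and 6 to 13 (serum difference), and for all genes 103 to 926 (FBS), 5 to 90 and 16 to 176 (DHT and enzalutamide differences). For the other member counts given here, all genes ran from 3895 to 4463 (knockdown with enzalutamide) and 3088 to 3974 (DHT in NTC). They ran from 2268 to 3744 (DHT in knockdown 10) and 1452 to 2426 (serum difference). The cause of these shifts was not tested. The FBS libraries are shallower, with at most 14196127 counts against at least 25236353 in CSS.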
